A study of Mus musculus with 6 samples.

Results

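Sine oculis homeobox (Six2, Six4, Six5) and eyes absent (Eya) genes were examined in maps of open chromatin from the mouse face. The members were Six2, Six4, Six5, Eya1, Eya2, Eya3 and Eya4. A region belonged to a gene when its strongest peak summit lay nearest to a protein-coding start site of that gene, at most 100 kb away. By this rule 207 regions fell to the 7 genes, of 245066 regions within 100 kb of any protein-coding start site and 382006 regions in all. The assay was bulk ATAC-seq, which marks accessible DNA by letting the Tn5 transposase place sequencing adapters there. All 6 libraries came from wild-type (WT) mouse embryos at stage e11.5, with no treatment and no transgene named in the labels. They comprised 2 libraries labelled maxillary process, the tissue of most of the upper jaw, 2 labelled mandibular process, the tissue of the lower jaw, and 2 labelled nose. Cell types were mixed, and no label tells separate embryos from pools, so that spread between them may be technical.

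The proteins encoded by Six2, Six4 and Six5 are homeodomain transcription factors. Eya proteins carry a phosphatase domain, do not bind DNA by themselves, and act as co-activators that these homeodomain factors bring to their targets. With Pax and Dach proteins they form a network that works in the preplacodal ectoderm, from which the olfactory, otic and lens placodes arise, and in mesenchyme of the head, kidney and muscle. In the face this network is best known from the nasal placode and from mesenchyme of the frontonasal region and the branchial arches.

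Each of the 4 jaw peak lists was named with the abbreviation of the opposite jaw, in conflict with its sample label. Groups follow the labels here, and exchanging them would exchange the words maxillary and mandibular in every value below. Regions near 4 genes with known jaw domains were compared between the jaw labels. For Hand2, which acts in the mesenchyme of the lower jaw, 4 regions were present in the maxillary pair of libraries and absent from the mandibular pair, with 0 of the opposite kind. The frontonasal and upper-jaw factors Alx1 and Alx4 had 0 of that kind, against 7 and 5 of the opposite kind. Hand1, the other lower-jaw gene, had 0 of either kind. The counts of the other 3 genes run against their usual domains under the labels as given. Over all genes, 7986 regions were of the first kind and 12265 of the opposite kind, so a lean to the mandibular label is general. Among mesenchyme genes Twist1 had 0 and 9, Prrx1 3 and 4, Pdgfra 1 and 2 and Msx1 3 and 3. Comparisons of nose with both jaws together do not depend on which jaw is which.

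Each library was deposited as a list of 219779 to 299731 summits covering 39.0 to 56.2 Mb, and read depth is unknown. The lists end at different strengths. The lowest −log10 q (q being the false discovery rate given by the peak caller) was 1.3 in 4 lists, 1.62 for replicate 1 of mandibular process and 2.55 for replicate 2 of maxillary process. A region not called may therefore still be open below a list's limit. In tissue of mixed cell types, a region open in fewer cells and one less open in each cell cannot be told apart. Promoters of the mesenchyme markers Prrx1, Twist1, Pdgfra and Msx1 had a peak in all 6 libraries, as did those of 4 of 5 epithelial genes. Promoter peaks in all 6 libraries were found for 3 of 4 neuronal, 3 of 4 muscle progenitor, 2 of 4 endothelial and 1 of 3 Schwann cell precursor and melanoblast genes. Of 4 blood genes, 0, 3, 3, 3, 1 and 2 had a promoter peak in maxillary replicates 1 and 2, mandibular replicates 1 and 2 and nose replicates 1 and 2. Their part in the results was not tested.

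The sequences below are windows of 201 bp centred on the strongest summit, on the plus strand of GRCm38 as given by RefSeq. They are the leading regions called under one label only, followed by one region that was open everywhere but ranked highest under one label. Capitals mark matches to short motifs that are spelled out further on.
Six2, 38.7 kb upstream, called only under mandibular process, chr17:85726829-85727029: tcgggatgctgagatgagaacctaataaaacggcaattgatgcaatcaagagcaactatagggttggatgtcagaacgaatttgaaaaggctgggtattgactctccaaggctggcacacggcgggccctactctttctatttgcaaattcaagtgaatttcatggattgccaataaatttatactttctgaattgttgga
Six4, 29.5 kb downstream, called only under mandibular process, with a TEAD match, chr12:73083805-73084005: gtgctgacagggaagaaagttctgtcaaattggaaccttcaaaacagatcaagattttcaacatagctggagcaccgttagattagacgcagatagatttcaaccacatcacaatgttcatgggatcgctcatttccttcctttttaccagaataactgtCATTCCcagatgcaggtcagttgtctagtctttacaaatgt
Eya4, 51.2 kb upstream, called only under mandibular process, with a TEAD match, chr10:23401848-23402048: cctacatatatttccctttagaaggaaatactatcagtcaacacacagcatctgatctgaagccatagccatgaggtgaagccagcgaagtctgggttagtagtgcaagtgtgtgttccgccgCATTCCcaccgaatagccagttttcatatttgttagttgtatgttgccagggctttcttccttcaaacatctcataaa
Eya4, 43.5 kb upstream, called only under maxillary process, chr10:23394196-23394396: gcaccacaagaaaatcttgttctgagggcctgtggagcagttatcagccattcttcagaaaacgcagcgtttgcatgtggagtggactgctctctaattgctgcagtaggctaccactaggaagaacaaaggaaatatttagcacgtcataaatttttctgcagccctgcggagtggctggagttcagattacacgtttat
Eya1, 63.4 kb upstream, called only under nose, with TEAD and GATA matches, chr1:14373533-14373733: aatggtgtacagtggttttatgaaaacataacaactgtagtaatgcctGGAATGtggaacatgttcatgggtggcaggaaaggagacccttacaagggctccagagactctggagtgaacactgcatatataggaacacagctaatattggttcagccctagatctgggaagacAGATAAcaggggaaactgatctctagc
Eya2, 45.1 kb downstream in an intron, called only under nose, with an Sp and Klf match, chr2:165700322-165700522: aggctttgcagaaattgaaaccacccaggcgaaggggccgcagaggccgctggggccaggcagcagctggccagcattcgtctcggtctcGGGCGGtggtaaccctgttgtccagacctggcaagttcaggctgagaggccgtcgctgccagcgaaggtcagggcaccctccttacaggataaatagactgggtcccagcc
Eya1, 20.3 kb downstream in an intron, called in all 6 libraries, with matches to AP-1 and to the site of the Six2 family, chr1:14284151-14284351: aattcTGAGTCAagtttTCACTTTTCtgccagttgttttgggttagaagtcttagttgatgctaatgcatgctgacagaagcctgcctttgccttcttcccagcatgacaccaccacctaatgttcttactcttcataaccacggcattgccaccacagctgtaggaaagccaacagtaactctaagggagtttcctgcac

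All 7 genes had a promoter peak, within 1 kb of a start site, in all 6 libraries, as did 65.6% of all protein-coding genes. The highest single values were at Eya3, a widely expressed Eya gene, in the region chr4:132638647-132639501, with −log10 q of 20.2 and 44.5 in the libraries labelled maxillary process, 44.5 and 32.1 in those labelled mandibular process, and 25.0 and 36.9 in those labelled nose. At Six5, which lies in the myotonic dystrophy locus, the promoter peak was the most even, between 26.2 and 29.8 in the 6 lists, and it exceeded that of Eya3 in maxillary replicate 1 and nose replicate 1. Six2, the factor that keeps kidney progenitors undifferentiated and that is also made in facial mesenchyme, had a promoter peak of 18.3 to 35.0. Six4 had 17.6 to 31.5 over a region of 1802 bp, the widest of all member regions. The promoters of Eya1, whose loss causes branchio-oto-renal syndrome in humans, and of Eya4, a deafness gene in humans, were weaker. The main Eya1 promoter region had 13.0 to 20.9, and the strongest of the 4 Eya4 promoter regions called everywhere had 8.10 to 18.2. The upstream Eya2 promoter had the weakest peaks among the genes' main promoters, 9.92 and 10.1 under maxillary process, 9.01 and 8.22 under mandibular process, and 5.61 and 7.08 under nose. Strength is comparable only roughly across lists, since −log10 q grows with sequencing depth.

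The genes differed in how many regions they held. With promoter regions included, Eya1 had 73 regions, Eya2 44, Six2 and Eya4 31 each, Six4 15, Six5 8 and Eya3 5. Away from promoters they had 66, 41, 28 (Six2), 27 (Eya4), 14, 3 and 3. Part of this follows from the stretch of DNA in which a gene's start site is the nearest. Eya1 and Eya2 each commanded 206 kb, Eya4 201 kb and Six2 134 kb, but Six4 38.3 kb and Six5 17.2 kb, since start sites of neighbouring genes lie close. Per 100 kb of this stretch, promoter regions included, Six5 had 46.5 regions, Six4 39.2, Eya1 35.5, Six2 23.2, Eya2 21.4, Eya4 15.4 and Eya3 5.94, beside 15.7 over all genes. Six5, Six4 and Eya1 stood above 97.1%, 94.8% and 92.7% of genes, and Eya3 above only 12%. Of the 207 regions 25 were promoter regions, 105 lay in introns, 15 in exons and 87 between genes. Their median width was 174 bp and their median GC content 47.8%, beside 175 bp and 48.8% over all regions. In all 6 libraries 38 were called (18.4%, against 21.7% of all regions), and 85 were called in 1 library only (41.1%, against 41.6%).

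By library, 72 and 83 of the 207 regions were called under maxillary process, 107 and 103 under mandibular process and 87 and 93 under nose. Each maxillary count was below every other, and each mandibular count above every other. As shares, these were 34.8% and 40.1% (of all regions, 39.8% and 48.2%), 51.7% and 49.8% (51.6% and 48.5%), and 42.0% and 44.9% (47.5% and 51.0%). The members thus lay below the general share in 4 libraries, and close to it in both mandibular ones. Only in maxillary replicate 2 did the general share (48.2%) lie outside the Wilson 95% interval of the member share (33.7 to 46.9%). In every other library the interval held the general share, so that a difference from all regions was not shown there. Such intervals cover counting error only. Eya1 had 21 and 25 regions under maxillary process, 32 and 34 under mandibular process and 26 and 29 under nose. The counts of the 3 labels did not overlap, but the lists also differ in their general share. Relative to the share of all regions called in each library, Eya1 stood at -11.0 and -13.9 percentage points under maxillary process, -7.8 and -1.9 under mandibular process and -11.9 and -11.2 under nose, so that only the mandibular libraries stood apart. Six4 had 6 and 8 (maxillary process), 9 and 10 (mandibular process) and 4 and 6 (nose). Among these counts only the mandibular ones stood clear of the rest. Relative to the share of all regions, Six4 stood at 0.2 and 5.2 percentage points (maxillary process), 8.4 and 18.2 (mandibular process) and -20.8 and -11.0 (nose). On that scale the nose libraries stood apart as well, below the others. In the same order of labels Six2 had 12 and 14, 22 and 16, and 14 and 14 regions. Relative to the share of all regions Six2 stood at -1.1 and -3.0, 19.4 and 3.1, and -2.3 and -5.8 percentage points. Its mandibular libraries thus stood highest on that scale, but mostly through replicate 1. Eya3 had 2 and 2, 4 and 4, and 2 and 2, on only 5 regions, and was not placed on that scale. Eya2 had 13 and 15, 21 and 18, and 21 and 23, lowest under maxillary process. Relative to the share of all regions it stood at -10.2 and -14.1, -3.9 and -7.6, and 0.2 and 1.3 percentage points. On that scale the 3 labels did not overlap, and nose was highest. Eya4 (14 and 12, 14 and 13, 15 and 14) and Six5 (4 and 7, 5 and 8, 5 and 5) overlapped between all labels.

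**Figure D1:**
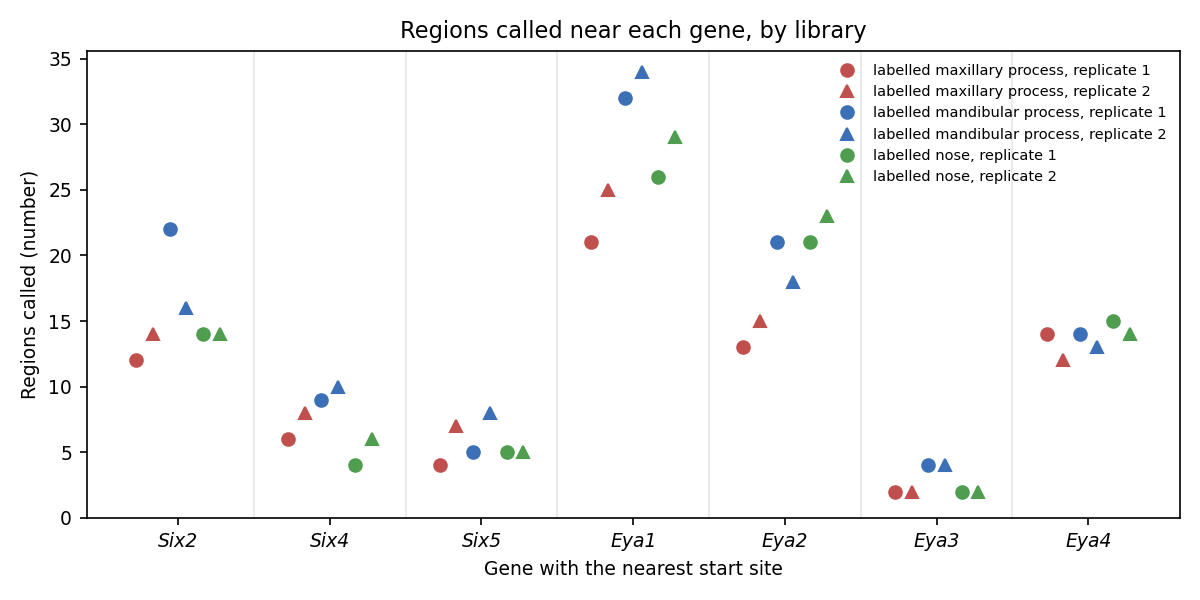
Number of regions called near each gene (vertical axis) for the 7 genes (horizontal axis), with 1 point per library, coloured by label and shaped by replicate. The mandibular points of Eya1 (32 and 34), Six4 (9 and 10) and Eya3 (4 and 4) lie above those of the other labels, while the points of Eya4 (12 to 15) overlap. The counts are not set against the share of all regions called in each library, and Eya3 had only 5 regions.

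Label-specific regions, those that both libraries of a label held and the other 4 did not, were counted next. There were 4 for maxillary process (1.93% of the 207, against 1.76% of all regions), 11 for mandibular process (5.31%, with a Wilson 95% interval of 2.99 to 9.26%, against 2.54%) and 9 for nose (4.35%, 2.30 to 8.06%, against 2.73%). The maxillary share was near the general one. The intervals cover counting error only, and the regions of one gene are not independent. With the lists trimmed to equal length the counts were 5, 6 and 7, beside 2.68%, 2.19% and 2.68% of all regions, and the mandibular count was no longer the highest. With only peaks of −log10 q of at least 3 they were 0, 6 and 5, beside 1.85%, 2.03% and 2.08%. All 4 maxillary regions had their weaker peak below 2.55, the highest limit of any list, whereas 6 of the 11 mandibular regions and 5 of the 9 nose regions had both peaks at or above it.

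Six2 and Six4 had label-specific regions under mandibular process only, 3 and 1 in number, and Six5 had 0. At Six2 the strongest, chr17:85726683-85726981, had −log10 q of 7.24 and 3.41 in the mandibular libraries and lay 38.7 kb upstream between genes. The others lay 34.5 kb (2.61 and 1.80) and 90.7 kb upstream (2.61 and 2.58), both close to the limits of the lists. At Six4 the region chr12:73083687-73084198, 29.5 kb downstream of the start site, had 9.39 and 7.87 in the mandibular libraries and was in no other list. It held the highest weaker peak of all 24 label-specific regions. One further Six2 region, chr17:85690831-85691253, 2.84 kb upstream, was called in all mandibular and nose libraries (2.88 and 1.31, and 2.34 and 3.88) but in neither maxillary one. The counts of Six2 depended on the setting. With lists of equal length 1 Six2 region was specific to mandibular process. When a peak had to cover 50% or 200 bp of a region, 4 were specific to mandibular process and 2 to nose.

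Eya1 and Eya4 had label-specific regions under all 3 labels. At Eya1 nose led with 5 regions, against 2 for mandibular process and 1 for maxillary process. The strongest nose region, chr1:14373497-14373818, lay 63.4 kb upstream (4.98 and 5.29), and the other 4 lay in introns, at 70.1, 39.3 and 7.41 kb downstream and 0.306 kb upstream of the nearest start site, with −log10 q of 1.79 to 3.67. The mandibular regions of Eya1 lay 3.93 kb upstream (7.66 and 1.69) and 16.5 kb downstream (1.94 and 2.87), and the maxillary one 2.76 kb upstream of an internal start site (2.48 and 5.36). One Eya1 intron region, chr1:14220024-14220465, was called in all 4 jaw libraries (1.77 and 6.15 under maxillary process, 5.36 and 2.19 under mandibular process) and in neither nose library. The order of labels at Eya1 depended on the lists. With lists of equal length Eya1 had 3 regions specific to maxillary process, 0 to mandibular process and 4 to nose. With −log10 q of at least 3 it had 0, 0 and 2.

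At Eya4 the mandibular region chr10:23401876-23402401, 51.2 kb upstream, was the strongest, with 10.6 and 6.20. Others under this label lay 75.9 kb upstream (4.33 and 4.30) and 57.3 kb downstream in an intron (3.44 and 1.80). The 2 maxillary regions lay 43.5 kb upstream (2.01 and 5.79) and 35.9 kb upstream (2.01 and 3.29), on the same side of the gene as the strongest mandibular one. The 2 nose regions of Eya4 both lay in introns, 27.4 kb (2.24 and 6.27) and 87.5 kb downstream (3.09 and 1.85).

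Eya2, which is known from muscle and placode development, had 2 nose regions, both in introns, against 1 each for mandibular and maxillary process. The nose region chr2:165700270-165700903 had −log10 q of 4.98 and 4.32, and at 634 bp it was the widest of the label-specific regions. The second nose region, 27.7 kb downstream (4.01 and 3.47), was a neighbour of the mandibular region, 29.0 kb downstream (5.26 and 4.30). The maxillary region lay 11.4 kb upstream (2.01 and 4.09). A pair of Eya2 regions, 30.2 kb and 13.1 kb upstream of a start site, were called in all mandibular and nose libraries and in no maxillary one. Eya3 had 1 label-specific region, mandibular, 37.3 kb upstream (1.84 and 2.58). Across the genes, 8 of the 9 nose regions lay in introns and 8 of the 11 mandibular regions between genes. The genes themselves differ in this, since 49 of 73 Eya1 regions and 32 of 44 Eya2 regions were intronic, and 27 of 31 Six2 regions lay between genes. Regions shared by 2 labels only numbered 1 for both jaws, 0 for maxillary process and nose and 3 for mandibular process and nose, beside 0.878%, 0.736% and 1.12% of all regions.

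**Figure D2:**
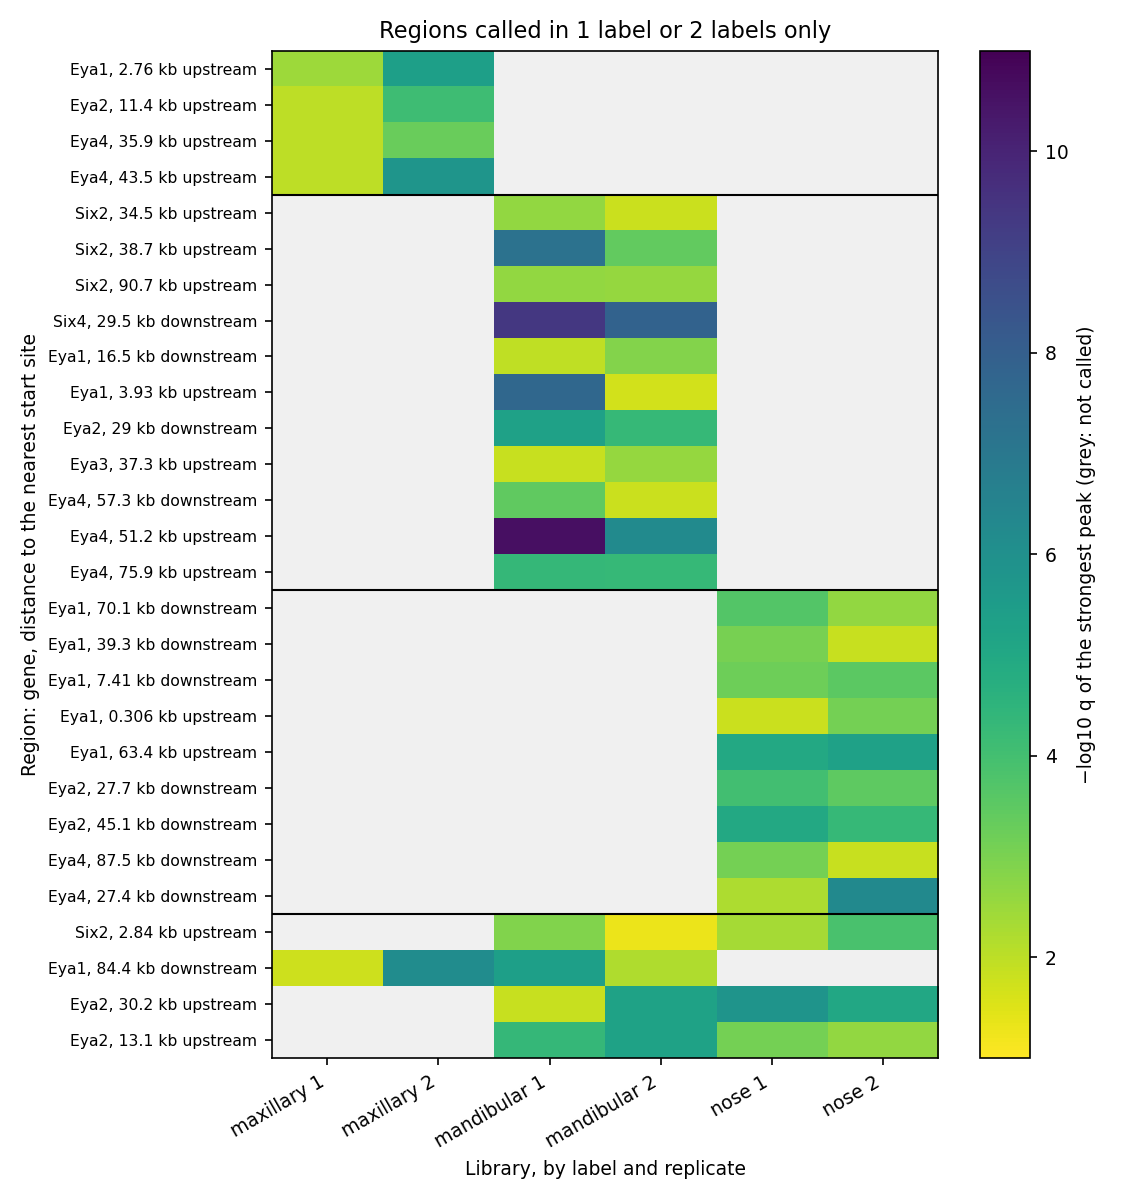
The 24 regions specific to a label and the 4 shared by 2 labels (rows, named by gene and distance to the nearest start site) in each library (columns). Colour gives the −log10 q of the strongest peak and grey means not called. Mandibular regions of Eya4 (10.6 and 6.20) and Six4 (9.39 and 7.87) are the darkest, and the 4 maxillary regions are pale in replicate 1 (2.01 to 2.48).

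**Figure D3:**
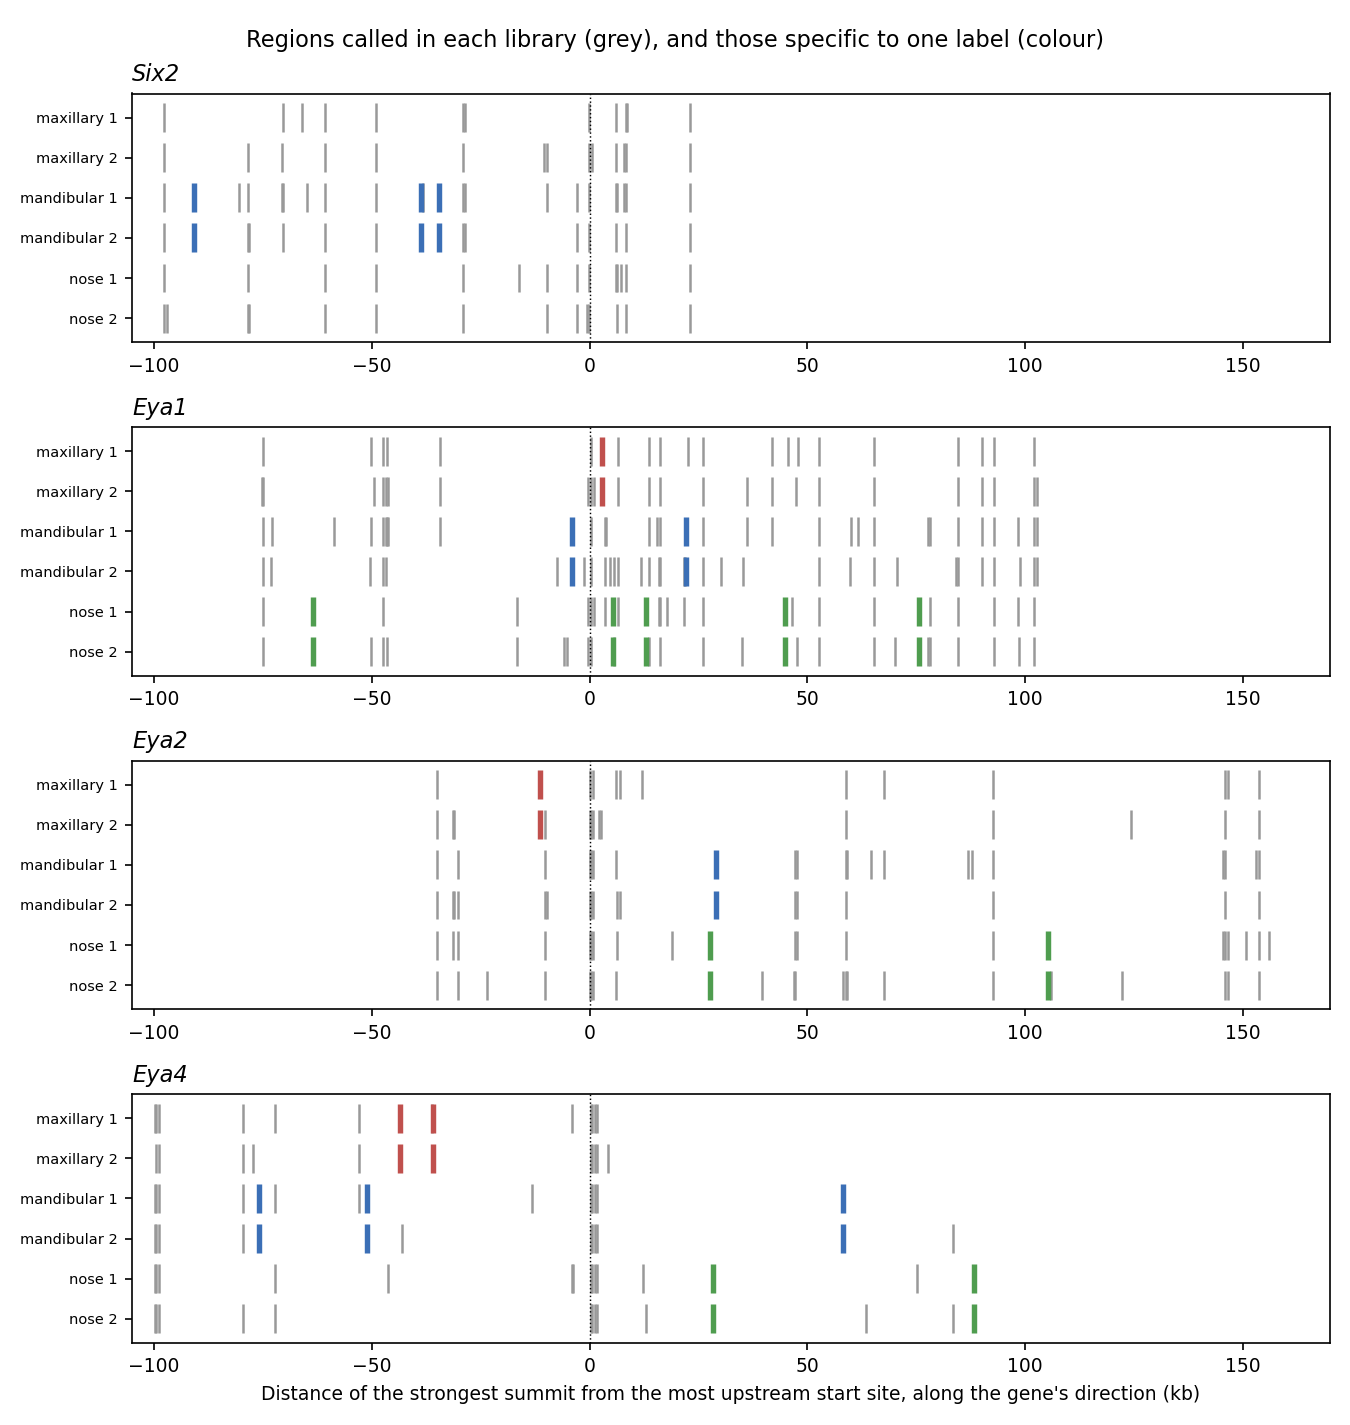
Position of every region of Six2, Eya1, Eya2 and Eya4 (horizontal axis, kb from the gene's most upstream start site, in its direction of transcription) in each library (vertical axis). Grey ticks are regions called in that library, and coloured ones are specific to its label (red maxillary, blue mandibular, green nose). The 3 coloured regions of Six2 are all mandibular, while Eya1 has 1 maxillary, 2 mandibular and 5 nose regions.

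Pairs of labels were then compared by the regions that one label held in both its libraries and the other in neither. For maxillary against mandibular process the members had 4 and 17 such regions (1.93% and 8.21% of the 207, against 3.26% and 5% of all regions). Six2 had 0 and 4, Six4 0 and 2, Eya1 1 and 3, Eya2 1 and 4, Eya3 0 and 1 and Eya4 2 and 3. For each gene with at least 5 differing regions, a two-sided exact binomial test compared the directions with those of the whole genome, with Benjamini-Hochberg adjustment over every gene tested. Of 994 genes tested 0 passed (0%, with 62 at an unadjusted p under 0.05), and the tested members Eya2 (exact p = 0.655, adjusted 0.997) and Eya4 (exact p = 1, adjusted 1) were not among the 62. Eya2 and Eya4 each had 5 differing regions, the fewest tested, at which no lean to mandibular process could reach 0.05 by this test. With lists of equal length the members had 5 and 8 regions, while the shares of all regions, 4.94% and 4.09%, turned to the opposite order. The mandibular regions of this contrast without counterpart above were a Six4 exon region 8.41 kb downstream (3.44 and 3.41), an Eya1 intron region 2.12 kb upstream (2.01 and 2.76) and an Eya2 intron region 12.7 kb upstream (1.84 and 4.30), each also called in 1 nose library.

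For maxillary process against nose the members had 9 and 14 regions (4.35% and 6.76% of the 207, against 3.5% and 5.15% of all regions). The genes divided unevenly. Eya1 had 4 and 6, Eya2 1 and 4, Eya4 3 and 2, Six2 0 and 2 and Six4 1 and 0. Of 1118 genes tested 0 passed (0%, 54 at an unadjusted p under 0.05), and none of Eya1 (exact p = 1), Eya2 (exact p = 0.654) and Eya4 (exact p = 0.4, adjusted 0.953) was past even the unadjusted threshold. Eya2 and Eya4 had the fewest differing regions that are tested, at which no lean to nose could reach 0.05 by this test. With peaks of −log10 q of at least 3 the counts of the members were 0 and 8, while the shares of all regions were 3.73% and 3.35%.

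For mandibular process against nose the members had 18 and 11 regions (8.7% and 5.31% of the 207, against 4.75% and 4.61% of all regions). Six2 accounted for 5 and 0 of these. Besides the 3 regions specific to the mandibular label, a Six2 region 28.5 kb upstream had 9.61 and 7.33 in the mandibular libraries and 3.42 in maxillary replicate 1, and one 70.4 kb upstream had 2.61 and 3.41, with 2.01 in maxillary replicate 1. Neither was in a nose list. The lean of Six2 did not pass the test (exact p = 0.0626, adjusted 0.610). Having 5 differing regions is the least for a gene to be tested. With 5 regions, 5 and 0 is the most extreme lean to mandibular process. The test could therefore not bring this lean to 0.05, even unadjusted, and it decides nothing about Six2. Six4 had 3 and 0, Eya1 5 and 6, Eya2 1 and 3, Eya3 1 and 0 and Eya4 3 and 2, and the other tested members Eya1 (exact p = 0.771) and Eya4 (exact p = 1) did not pass either. Of 1258 genes 0 passed (0%, 95 at an unadjusted p under 0.05). With lists of equal length the members had 10 and 8 regions (4.62% and 4.99% of all regions) and Six2 had 3 and 0. Six2 had 5 and 2 when a peak had to cover 50% or 200 bp of a region, and 5 and 4 within 500 kb, where nose regions farther from the gene entered.

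The sharing of regions between libraries was measured by the Jaccard index, the number of regions called in both libraries divided by the number called in either. Over the 207 regions it was 0.506 ± 0.00636 (SD, n = 3) for pairs with the same label, against 0.408 ± 0.0266 (SD, n = 12) for pairs with different labels. The lowest same-label pair (0.5) was above the highest other pair (0.450). Over all regions within 100 kb the means were 0.546 and 0.476, so the difference was 0.0980 for the members beside 0.0699 in general. Over all regions, too, the lowest same-label pair (0.544) was above the highest other pair (0.504), so this separation was not particular to the members. By gene, the same-label mean was 0.867 at Eya3, 0.613 at Eya4, 0.443 at Eya1, 0.581 at Six2, 0.456 at Eya2 and 0.43 at Six4, against 0.667, 0.416, 0.332, 0.474, 0.392 and 0.373 for other pairs in the same order of genes. Six5 went the other way, with 0.621 against 0.736, on 8 regions. At each single gene the lowest same-label pair lay below the highest other pair, as at Eya4 with 0.526 against 0.556.

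**Figure D4:**
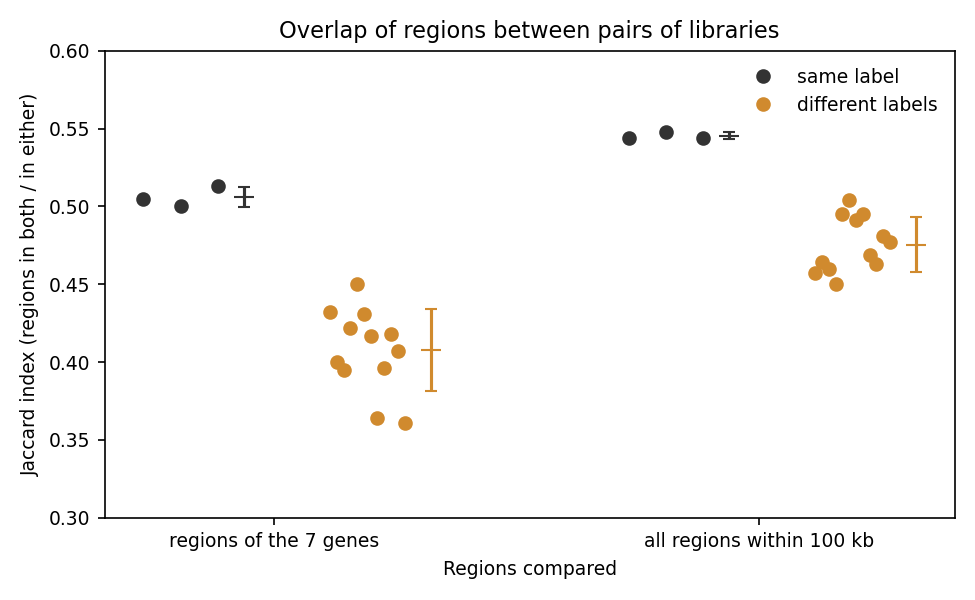
Jaccard index (vertical axis, from 0.3 to 0.6) of the 15 pairs of libraries, over the regions of the 7 genes and over all regions within 100 kb. Points are pairs, black with the same label and orange with different labels, and bars are mean ± SD. Over the regions of the 7 genes the same-label pairs lie between 0.5 and 0.513 and all other pairs at or below 0.450. Over all regions the same-label pairs lie at or above 0.544 and all other pairs at or below 0.504.

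The 38 regions called in all 6 libraries were set apart by rank, as the percentile of a region's best peak within its own list, with 0 for the strongest. This comparison was chosen after its values were seen. A percentile also depends on the length and the limit of its list, which differ between libraries, so ranks are comparable only roughly. Of the 38, both maxillary libraries ranked 4 ahead of the other 4 libraries, both mandibular libraries 5 and both nose libraries 1. Over all regions called everywhere the shares were 6.33%, 11.9% and 11.1%. As a share of the 38, the mandibular count was thus near the general one. The maxillary count was above and the nose count below it, on few regions. The widest shift was at Eya2, in the intron region chr2:165748315-165748935, 93.4 kb downstream. It ranked at 10.2% and 30.4% in the mandibular lists, against 63.1% and 53.0% in the maxillary and 77.3% and 94.8% in the nose lists, and its −log10 q was 18 and 7.21, against 2.92 and 5.79, and 2.24 and 1.85. A neighbouring Eya2 region, 85.8 kb downstream, had the opposite profile. It ranked at 15.5% and 16.3% in the maxillary and 18.3% and 16.4% in the nose lists, and at 51.5% and 72.0% in the mandibular lists. This region is among the 4 of maxillary process only by a near tie with nose, 16.3% against 16.4%.

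At Eya1, which held 5 of the 10 regions, the one 20.3 kb downstream ranked at 25.6% and 9.11% in the mandibular lists, against 59.4% and 40.3% in the maxillary and 52.2% and 67.0% in the nose lists. Eya1 regions 47.5 and 75.0 kb upstream led in the maxillary lists (15.2% and 9.88%, and 26.0% and 35.8%), and one 79.0 kb downstream led in the nose lists at 17.1% and 8.27%, against 25.4% and 29.6% in the maxillary and 42.4% and 31.3% in the mandibular lists. At Six2 the region 29.2 kb upstream led in the mandibular lists (9.45% and 15%), against 18.1% and 24.6% in the maxillary and 20.6% and 21.5% in the nose lists. It lies beside the Six2 region 28.5 kb upstream that no nose list held. The strongest distal Six2 region, chr17:85748581-85749322, 60.7 kb upstream, was open everywhere, with −log10 q of 12.2 and 26.9 under maxillary process, 22.2 and 36.1 under mandibular process and 12.8 and 28.0 under nose, and the replicates of each label differed more than the means of the labels.

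**Figure D5:**
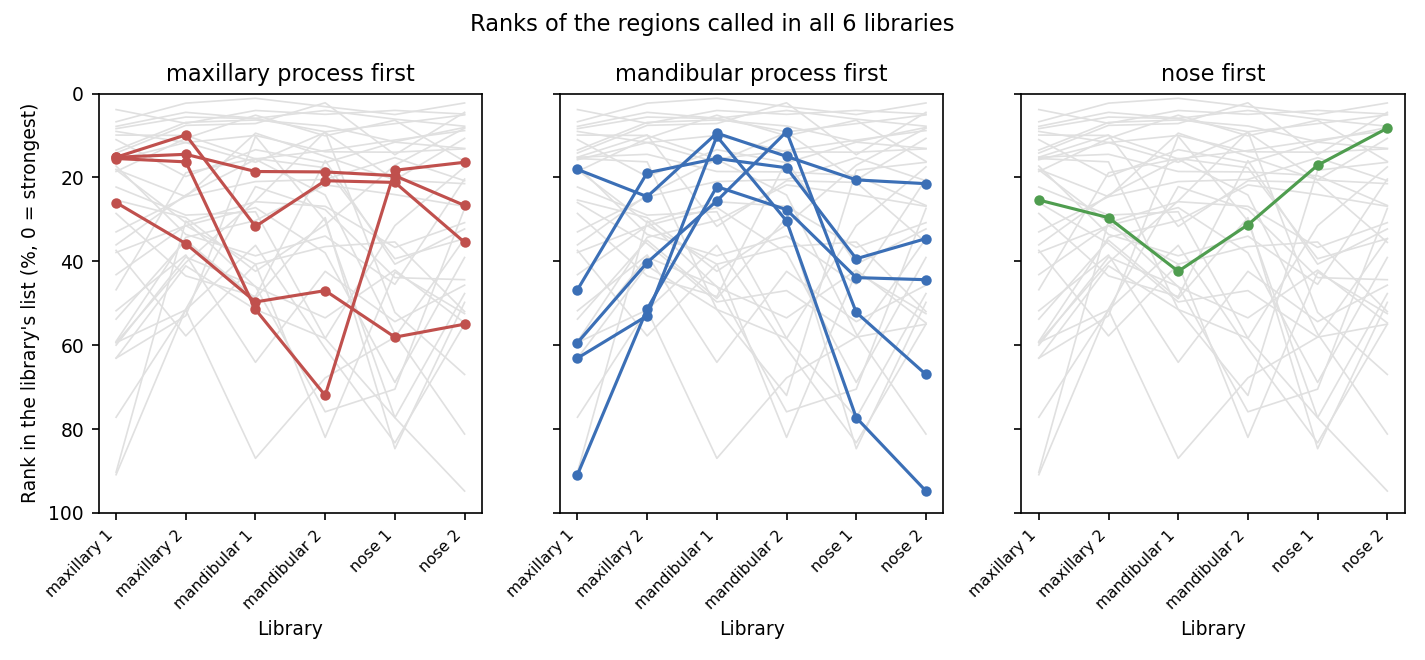
Percentile rank (vertical axis, 0 for the strongest peak of a list, at the top) of the 38 regions called in all 6 libraries (horizontal axis). Each panel colours the regions that both libraries of one label ranked ahead of the other 4, which were 4, 5 and 1, and draws the rest in grey. The steepest mandibular line is the Eya2 region at 10.2% and 30.4%, against 63.1% and 53.0% in the maxillary lists and 77.3% and 94.8% in the nose lists.

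Other genes of the network were described from a list of 24, comprising the cofactors Dach1, Dach2, Sobp, Mcrs1, Tle1, Tle3 and Tle4, the Pax partners Pax2, Pax6 and Pax8, the preplacodal factors Foxi3, Gata3, Tfap2a, Tfap2c, Dlx5, Dlx6 and Irx1, and the downstream genes Sall1, Myog, Myf5, Gdnf, Osr1, Osr2 and Ccnd1. They held 815 regions, of which 170 (20.9%, against 21.7% of all regions) were called in all 6 libraries. Specific to maxillary process, mandibular process and nose were 22, 26 and 24, beside 1.76%, 2.54% and 2.73% of all regions. As shares of the 815 these counts lay somewhat above the general ones, least so for nose, which was not tested. Of the 24 genes 12 were tested in at least 1 contrast and 0 passed. Pax6, which is needed for the lens and nasal placodes, had 67 regions, with 2 and 7 differing for maxillary against mandibular process (exact p = 0.497). Osr1, a mesenchymal zinc finger factor, had 5 and 3 (exact p = 0.277). Dach1, the co-repressor that binds Eya, had 43 regions, with 2, 1 and 1 specific to maxillary process, mandibular process and nose.

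In the 201 bp windows 11 short motifs were searched on both strands. The letters GAAANNTGA, bound by factors of the Six2 family, occurred in 13 of the 207 windows (6.28%, against 5.64% of all regions), among them 3 regions called in all 6 libraries at Eya1, Eya2 and Six5 and 1 specific to nose at Eya4. TAATTA for homeodomains was in 6 windows (2.90% against 4.38%), GCCNNNGGC for TFAP2 in 15 (7.25% against 7.53%), CAGATGG for Twist in 15 (7.25% against 5.93%), TGANTCA for AP-1 in 17 (8.21% against 6.60%), GGGCGG for Sp and Klf factors in 21 (10.1% against 10.3%) and AGATAA for GATA factors in 23 (11.1% against 8.31%). ACAATGG for Sox was in 3 windows (1.45% against 2.5%), TGATTNAT for Pbx and Hox in 7 (3.38% against 2.35%) and CCGGAAG for ETS factors in 1 (0.483% against 1.9%). GGAATG, the letters bound by TEAD factors, was in 30 windows (14.5% against 13.4%). It was in 9 of the 24 label-specific windows (37.5%), against 14.4% of 17223 such windows genome-wide. This motif was picked out of the 11 after its values were seen, so no test is given. The 9 include the mandibular Six4 and Eya4 and the nose Eya1 sequences printed above, where it appears as CATTCC or GGAATG. A match is a string of letters in the window and was not tested as a site.

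Genes with a profile like that of a member were sought by the share of their regions called in each library, centred on the share of all regions. Over 6 libraries and 7815 genes with at least 10 regions, the closest by Pearson r were Gdf6 (0.991), Itgb8 (0.990) and Reck (0.990) for Six2, Sstr4 (0.994), Fhl4 (0.988) and Myh10 (0.985) for Six4, Gm10283 (0.987), Ndnf (0.983) and Pappa (0.982) for Eya1, Ergic2 (0.986), Sema5a (0.978) and Gk (0.973) for Eya2, and Shq1 (0.965), Hira (0.955) and Timp3 (0.951) for Eya4. With only 6 points, all from the same libraries, high values are common, and between 27 and 151 genes exceeded 0.9 for each member.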

How the data were processed

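The authors deposited 1 narrowPeak list per library, giving per summit its score, its fold above local background, and its p and q on a −log10 scale. The deposited score was 10 times −log10 p, rounded down and capped, in 100% of lines. Bowtie2, SAMtools and mm10 are named in the submitters' processing notes. The peak caller is not given in the sources used here. Reads were single-end of 50 bp, and the deposited fold is a ratio within one library, so only calls and ranks were compared across libraries. Peaks sharing at least 1 bp were merged across lists, and each region's best-ranked summit was assigned to the nearest protein-coding start site of GENCODE M21 (21827 genes), up to 100 kb away, on GRCm38. Intron and exon follow the annotation at that summit. Groups follow the sample labels. One further marker list is not reported here. Named were all 7 genes, their promoter regions, up to 3 regions per class and the leading shared regions. The members, lists, motifs and tests were chosen with earlier results of these data known, so no p over the member regions together is given, including one planned for the Jaccard index. Alternatives were lists of equal length (219779 summits), −log10 q of at least 3, cover of 50% of a region or 200 bp, distances of 50 and 500 kb, and each library left out. The exact binomial test, Benjamini-Hochberg adjusted and called at 0.05, was tested on simulated data. Each simulated gene had more differing regions than any member tested with the main settings, so its power for the members was not shown. Scripts ran under Python 3.11.15 with scipy 1.17.1, pandas 2.3.3, numpy 2.4.6 and, for figures, matplotlib 3.10.9.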

Additional observations from a re-analysis of the deposited data

How the results depend on the processing

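No member passed the binomial test in any alternative that tested one. In 5 of 33 contrasts over the alternatives no member had enough differing regions to be tested, namely all 3 with −log10 q of at least 3, and maxillary against mandibular process under cover of 50% or 200 bp and under equal-length lists. The Jaccard difference stayed positive in all, at 0.0443 with −log10 q of at least 3, 0.0786 with cover of 50% or 200 bp, 0.117 within 500 kb and 0.0883 to 0.112 with a library left out. Counts moved more. With lists of equal length, 6 regions were specific to mandibular process, 2 were shared by the jaws and 1 by mandibular process and nose, and 8 and 10 were of mandibular process against maxillary process and against nose. In the same order, the shares of all regions were 2.19%, 1.15%, 0.834%, 4.09% and 4.62%. With −log10 q of at least 3, regions specific to maxillary process, mandibular process and nose were 0, 6 and 5, those shared by the jaws and by mandibular process and nose 0 and 0, and the contrasts gave 0 and 7 for maxillary against mandibular process, 0 and 8 for maxillary process against nose and 9 and 7 for mandibular process against nose. For these contrasts the shares of all regions were 3.34% and 3.37%, 3.73% and 3.35%, and 5.06% and 4.57%. With that setting mandibular process ranked first in 2 regions called everywhere. With cover of 50% or 200 bp, 2 regions were specific to maxillary process, 0 shared by the jaws and 1 by maxillary process and nose, 3 were of maxillary process against nose, and mandibular process ranked first in 3. For the classes other than the ranks, the shares of all regions were 2.1%, 0.921%, 0.599% and 3.9%. Within 50 kb, 7 were specific to mandibular process, 0 shared by the jaws, 11 and 7 of mandibular process against nose, and 2, 3 and 0 ranked first under maxillary process, mandibular process and nose. Apart from the ranks, the shares of all regions within 50 kb were 2.41%, 0.836%, and 4.56% and 4.32%. Within 500 kb, specific regions were 14, 18 and 17, shared ones 3, 1 and 5 (both jaws, maxillary process and nose, mandibular process and nose), the contrasts 17 and 28, 22 and 27, and 31 and 21, and first ranks 8, 12 and 6. Of all regions within 500 kb, 1.89%, 2.76% and 3.08% were specific. The contrasts held 3.5% and 5.31%, 3.7% and 5.58%, and 5.05% and 5.1% of them. With a library left out the count of a label with 1 library rises by construction, and the highest values below came without replicate 1 of the label in question, except for mandibular process against nose, where it was replicate 2, and for the shared regions and first ranks. Specific regions were 4 to 15, 12 to 31 and 9 to 28 for maxillary process, mandibular process and nose, shared ones 2 to 4, 0 to 2 and 3 to 6, and the contrasts 4 to 17 and 17 to 42, 9 to 30 and 14 to 38, and 18 to 43 and 11 to 31. The general shares rose as well. Without replicate 1 of the label, 8.25%, 10.6% and 12.2% of all regions were specific to maxillary process, mandibular process and nose. At the highest count of each contrast the shares of all regions were 12.4% and 15.6%, 12.8% and 17.3%, and 16.8% and 16.1%. First ranks were 4 to 10, 6 to 11 and 2 to 6. The ranking of shared regions and its alternatives were chosen after seeing the data. Apart from fewer or more regions entering, the cause of each change was not tested. No paired analysis was possible because a region counts as differing only when both replicate numbers differ, so that a pairing leaves each count as it is.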

Other observations

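Beyond 100 kb, where Eya1 and Eya4 border on DNA with few other start sites, further label-specific regions lay nearest to these genes. Within 500 kb Eya1 had 9 regions specific to maxillary process, 4 to mandibular process and 9 to nose, against 1, 2 and 5 within 100 kb. Over all regions within 500 kb the shares were 1.89%, 2.76% and 3.08%. Eya4 had 4, 8 and 3, against 2, 3 and 2. For mandibular process against nose Eya4 had 13 and 3 regions within 500 kb (5.05% and 5.1% of all regions), and for maxillary against mandibular process Eya1 had 11 and 7 (3.5% and 5.31% of all regions). Six2 had 3 regions specific to nose within 500 kb and 0 within 100 kb. The members together held 381 regions within 500 kb, of which 67 were called in all 6 libraries. Whether these regions act on the nearest gene was not tested.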
